A study of Brachypodium distachyon with 214 samples.

Results

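Soil drying raised the transcripts of a small set of nuclear genes at least 3-fold in the leaves of both accessions of Brachypodium distachyon, an annual grass used as a model of the cool-season cereals. Of 32439 nuclear genes in the count table, 14960 reached a group mean of at least 2 CPM (the count of a gene per 1000000 counts of its library) in droughted plants of both accessions. Of these, 65 had a droughted mean of at least 3 times the control mean in Bd21 and in Bd3-1. The 56 members described here are those 65 without 9 loci that are not described here. The members were thus chosen by their measured drought ratios, and their rise under drought is given below as a description with no test. Tests are given for 3 measures on which the choice set no threshold. They are the difference between the accessions in control plants, the same difference in droughted plants, and the difference between the accessions in drought response. All 3 use the same plants and counts as the choice, so they are not independent of it.

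Plants that lose soil water accumulate abscisic acid, a hormone that closes stomata and switches on a broad set of genes in leaf cells. Among the products of such genes are dehydrins and other late embryogenesis abundant proteins, hydrophilic proteins that accumulate in drying seeds and water-stressed tissue, as well as kinases and ubiquitin ligases that carry or end the signal. Many of these genes are also induced by cold and salt. The sources used here annotate 5 of the 56 members, and the other 51 are named by locus only. The first digit of a locus name is its chromosome.

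Each library was made from leaf tissue of a single plant of the inbred accession Bd21, which supplied the reference genome, or of the inbred accession Bd3-1. Soil of the control pots was held at 85% of field capacity, the water that remains after draining, while that of the drought pots was let dry from day 33 over 6 days to 55%. For Bd21 there were 48 control libraries and 49 drought libraries. For Bd3-1 there were 58 and 59, and all 4 growth batches held plants of every group.

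Library totals, in units of 1000000 counts, ranged from 0.525 to 8.37 with a median of 1.92, so that 1 CPM corresponds to about 2 counts in a typical library. Plastid coding sequences, a mark of green tissue, took a median of 7.87% of counts in Bd21 control, 7.53% in Bd21 drought, 7.17% in Bd3-1 control and 7.05% in Bd3-1 drought. The library labelled Bd3-1 drought replicate 59 stood apart. Over the 14960 genes its log2 profile correlated with the mean of droughted Bd21 at r = 0.962 and with that of droughted Bd3-1 at r = 0.938, whereas none of the other 58 droughted Bd3-1 plants was closest to a Bd21 mean. It was left out of every value below unless stated, and with it 57 genes met the rule beside the 9 loci, all 56 members among them. In leaf tissue taken whole, fewer cells of a type and less RNA per cell cannot be told apart. Reads of Bd3-1 were aligned to Bd21 sequences, so a difference in expression between the accessions and a difference in alignment cannot be told apart.

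The members were scarce in watered leaves and moderately abundant in drying ones. Over the 56 members the median of the group means was 1.68 CPM in Bd21 control and 7.32 in Bd21 drought, and 1.34 in Bd3-1 control and 6.78 in Bd3-1 drought. The median drought ratio was 4.31 in Bd21, from 3.01 to 51.8, and 5.52 in Bd3-1, from 3.14 to 69.6. Over the 14960 genes at this level the median ratio was 1.06 in Bd21 and 1.04 in Bd3-1. A ratio of at least 10 was reached by 11 members in Bd21, by 12 in Bd3-1 and by 11 in both. The ratio was larger in Bd3-1 for 48 of the 56 members. The same count was not made over the 14960 genes, so nothing is read from the 48. The ratios of single members differ in weight, because the libraries of many control plants held no count of them: at least 0.5 of the Bd21 control libraries were at 0 for 9 members, and at least 0.5 of the Bd3-1 control libraries for 12.

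**Figure D1:**
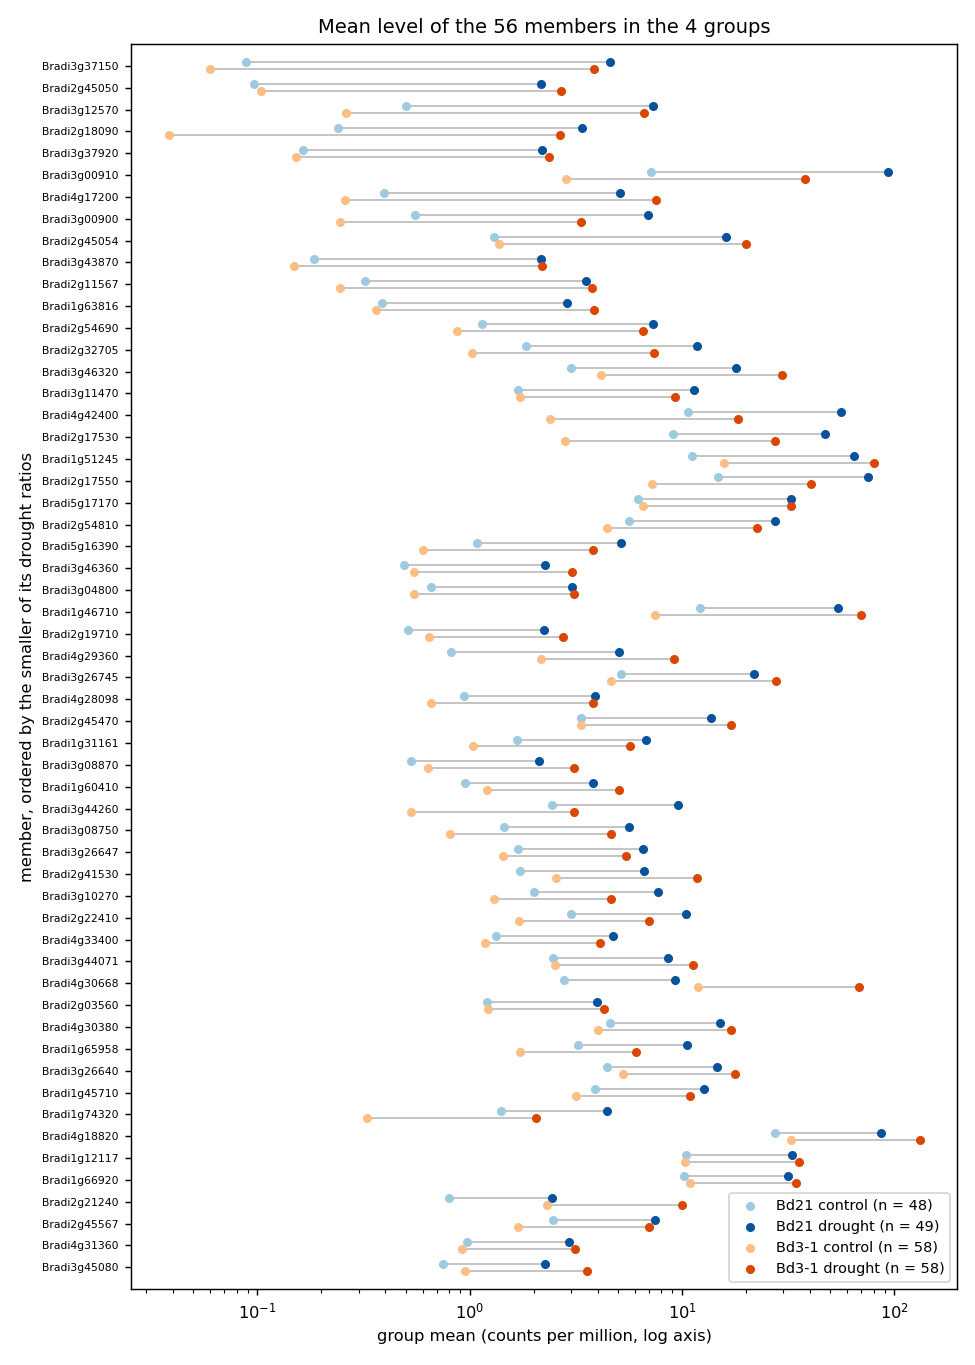
Mean level of each of the 56 members in the 4 groups, in CPM on a log axis, with members ordered by the smaller of their drought ratios. A grey line joins control and drought of an accession, with Bd21 drawn above Bd3-1. Bradi3g37150, with ratios of 51.8 and 64.1, stands at the top and Bradi3g45080, with 3.01 and 3.75, at the bottom.

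Plants did not all respond alike, and most members still overlapped between treatments. In Bd3-1, 1 member (Bradi1g51245) had every droughted plant above every control plant, and in Bd21 there were 0 such members. Over the 14960 genes at this level such a separation was found for 0.0201% in Bd21 and 0.0201% in Bd3-1, and since the choice of members used this contrast nothing is read from these counts. A looser measure is whether every droughted plant lay above the control median, which held for 23 members in Bd21, against 0.709% of the genes at this level, and for 25 in Bd3-1, against 0.896%. For the median member, 68.4% of droughted Bd21 plants and 77.6% of droughted Bd3-1 plants lay above the highest control plant.

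The annotated members include a dehydrin and a pair of cold regulated proteins, all nearly silent or low in watered leaves. Bradi3g43870, a dehydrin that the study names as an ortholog of RAB18 of Arabidopsis, had a lowest, median and highest level of 0, 0 and 1.68 CPM in Bd21 control and of 0, 1.92 and 7.23 CPM in Bd21 drought. In Bd3-1 it had 0, 0 and 1.81 CPM in control plants and 0, 1.79 and 12.4 CPM in droughted plants. No count of it was found in 37 of 48 Bd21 and 46 of 58 Bd3-1 control libraries, but the few control plants with counts overlapped the lower droughted plants. The drought to control difference in log2 mean CPM was 3.54 ± 0.48 (SE) in Bd21 and 3.88 ± 0.49 in Bd3-1, a ratio of 11.6 and 14.8.

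The cold regulated proteins Bradi2g45050 and Bradi2g45054 lie 4 locus numbers apart on chromosome 2 and differed in level. Bradi2g45054 had a lowest, median and highest level of 0, 1.09 and 3.91 CPM in Bd21 control, and of 3.26, 14.9 and 46.0 CPM in Bd21 drought. In Bd3-1 the levels were 0, 1.22 and 4.56 CPM in control plants and 2.51, 19.2 and 41.6 CPM in droughted plants. Droughted plants lay above the highest control plant in 46 of 49 cases in Bd21 and in 57 of 58 in Bd3-1, with ratios of 12.4 and 14.5. Bradi2g45050 was lower throughout, with a median of 0 in both control groups, of 1.78 CPM in Bd21 drought and of 2.35 CPM in Bd3-1 drought. Its highest control plants reached 0.681 CPM in Bd21 and 0.736 CPM in Bd3-1. Its ratios of 22.4 and 25.9 rest on 10 and 12 counts in all Bd21 and all Bd3-1 control libraries together, and the 95% counting intervals of the ratio of pooled counts run from 12.1 to 48.0 and from 13.4 to 46.6.

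The remaining annotated members encode signalling proteins. Bradi4g29360 is a U-box E3 ubiquitin ligase, an enzyme class that marks proteins for degradation and in Arabidopsis includes regulators of abscisic acid and drought responses. It had a lowest, median and highest level of 0, 0.588 and 3.58 CPM in Bd21 control and of 0, 3.19 and 30.0 CPM in Bd21 drought. The Bd3-1 values were 0, 1.76 and 7.73 CPM in control plants and 1.12, 6.96 and 31.1 CPM in droughted plants. Treatments overlapped in both accessions, where 22 of 49 and 23 of 58 droughted plants lay above the highest control plant. Bradi4g30380 is a kinase of the SnRK3 family, whose members act with calcineurin B-like calcium sensors. Its lowest, median and highest level was 1.06, 4.43 and 7.88 CPM in Bd21 control and 3.30, 16.0 and 26.8 CPM in Bd21 drought. In Bd3-1 the values were 0.702, 3.86 and 7.79 CPM in control plants and 7.16, 17.3 and 32.9 CPM in droughted plants. Its separation was cleaner than that of the ligase, with 43 of 49 and 56 of 58 droughted plants above the highest control plant and ratios of 3.29 and 4.22.

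**Figure D2:**
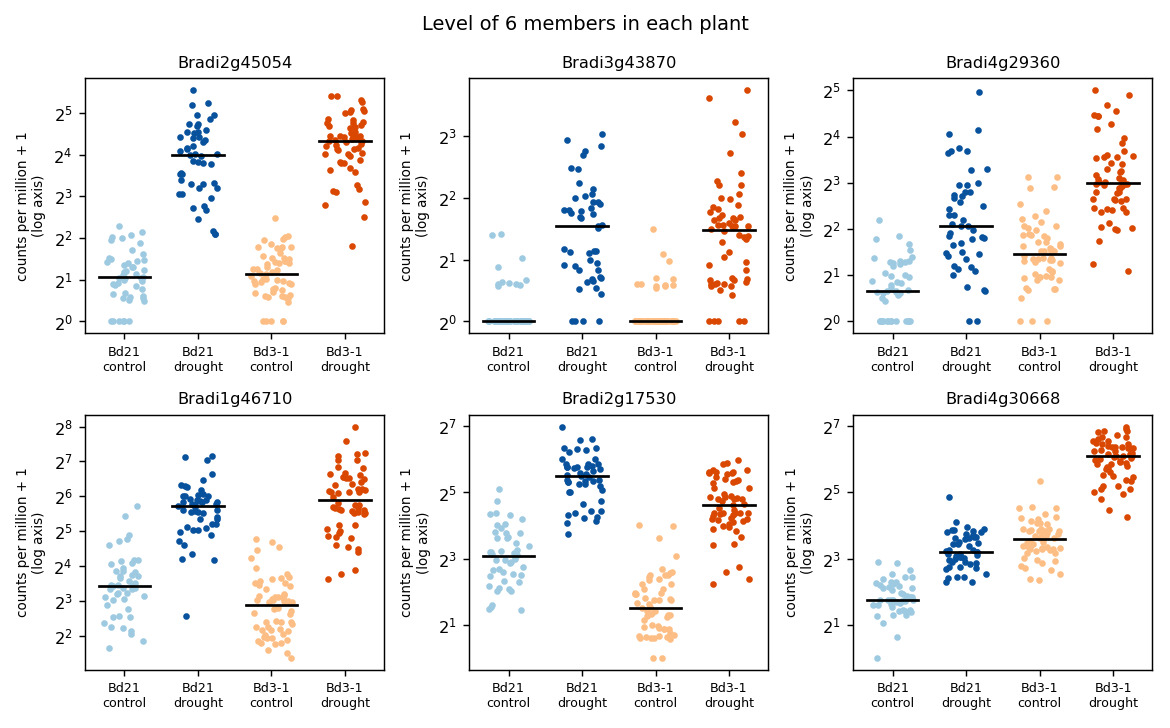
Level of 6 members in each plant, as CPM + 1 on a log axis, with a point for each plant and a black bar at the group median. Bradi2g45054 rose from medians of 1.09 and 1.22 to 14.9 and 19.2 CPM, Bradi3g43870 left 0 in most droughted plants, and Bradi4g30668 was higher in Bd3-1 than in Bd21 in each treatment.

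Among the 8 members with the largest ratios in both accessions were several that most control libraries did not hold. Bradi3g37150 led, with a lowest, median and highest level of 0, 0 and 1.61 CPM in Bd21 control and 0, 3.68 and 13.1 CPM in Bd21 drought. In Bd3-1 it had 0, 0 and 0.662 CPM in control plants and 0, 3.04 and 11.3 CPM in droughted plants. It was at 0 in 42 of 48 and 51 of 58 control libraries, and only 2 droughted libraries of each accession held none. Its ratios of 51.8 and 64.1 rest on 8 and 7 control counts, with counting intervals of 30.7 to 142 and 27.8 to 145 for the pooled counts. Bradi2g18090 had the widest gap between the accessions, with a ratio of 14.1 in Bd21 and 69.6 in Bd3-1, but the latter rests on 4 counts in 58 control libraries and its counting interval runs from 26.9 to 258. Bradi3g12570 had ratios of 14.5 and 25.2, Bradi3g37920 of 13.3 and 15.5, and Bradi4g17200 of 13.0 and 29.1. In all 3 the median control plant of Bd3-1 held no count, and the highest control plants of either accession reached between 1.04 and 2.79 CPM.

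The remaining high ratios belong to Bradi3g00900 and Bradi3g00910, neighbouring loci on chromosome 3. Bradi3g00910 combined a high level with a high ratio. It had a lowest, median and highest level of 1.68, 6.29 and 23.8 CPM in Bd21 control and of 13.3, 79.4 and 430.4 CPM in Bd21 drought. In Bd3-1 the levels were 0, 2.23 and 12.3 CPM in control plants and 7.57, 27.6 and 158 CPM in droughted plants. The ratios were 13.0 and 13.4. Bradi3g00900 was lower, with medians of 0.575 and 4.96 CPM in Bd21 and of 0 and 2.46 CPM in Bd3-1, and ratios of 12.5 and 13.7. The estimated counts above 0 were fractional in 97.9% of libraries for Bradi3g00900 and in 66.0% for Bradi3g00910, so reads there were divided with other transcripts, which the table does not name, and their counts are uncertain. The same holds for Bradi3g46360 and Bradi2g22410, at 99.2% and 98.5%, and over 10% of estimates were fractional in 9 members in all.

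The most abundant members had counts in every control plant in most cases. Bradi3g00910, described above with its high ratios, is also among them. Bradi4g18820 was highest on average over both droughted groups, with a lowest, median and highest level of 6.91, 21.1 and 83.8 CPM in Bd21 control and of 42.6, 81.4 and 182 CPM in Bd21 drought. The Bd3-1 values were 11.8, 28.8 and 75.9 CPM in control plants and 38.4, 125 and 248 CPM in droughted plants. Treatments overlapped more in Bd21, where 22 of 49 droughted plants exceeded the highest control plant, than in Bd3-1, where 55 of 58 did, and the difference between these shares was not tested. Bradi1g51245 was the member that separated fully in Bd3-1, from 6.69, 16.0 and 26.5 CPM in control plants to 32.6, 79.1 and 138 CPM in droughted plants. In Bd21 it rose from 2.66, 10.7 and 24.5 CPM to 19.9, 60.9 and 112 CPM, with 47 of 49 droughted plants above the highest control plant.

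On chromosome 2, the neighbours Bradi2g17530 and Bradi2g17550 were both abundant. Bradi2g17550 had a lowest, median and highest level of 3.45, 14.3 and 47.8 CPM in Bd21 control and of 27.7, 73.4 and 147 CPM in Bd21 drought. In Bd3-1 it had 1.39, 5.79 and 29.7 CPM in control plants and 6.27, 40.5 and 81.3 CPM in droughted plants. Bradi2g17530 had 1.76, 7.52 and 33.3 CPM in Bd21 control and 12.4, 44.2 and 126 CPM in Bd21 drought, against 0, 1.88 and 15.2 CPM in Bd3-1 control and 3.76, 23.8 and 61.9 CPM in Bd3-1 drought. Both loci were thus higher in Bd21 in each treatment, with overlapping plants throughout. A further pair of neighbours, Bradi3g26640 and Bradi3g26647, had ratios of 3.27 and 3.87 in Bd21 and of 3.35 and 3.82 in Bd3-1.

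At the edge of the rule the members differ little from genes that missed it. Just inside, the smaller ratio was 3.01 for Bradi3g45080, 3.02 for Bradi4g31360 and 3.02 for Bradi2g45567. Just outside, it was 2.996 for Bradi2g42312, 2.96 for Bradi4g38780 and 2.94 for Bradi2g48290. The boundary therefore parts genes whose ratios differ by less than their errors, since the SE of the log2 ratio of Bradi3g45080 was 0.26 in Bd21 and 0.22 in Bd3-1.

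Summed over the 56 members, the transcripts separated watered from drying plants without overlap. The lowest, median and highest sum was 124, 194 and 420 CPM in Bd21 control, against 465, 933 and 1809 CPM in Bd21 drought. It was 108, 173 and 286 CPM in Bd3-1 control, against 379, 923 and 1600 CPM in Bd3-1 drought. All 49 and all 58 droughted plants lay above the highest control plant of their accession, as the choice of members favours. Within the droughted groups the sum still varied 3.89-fold between plants of Bd21 and 4.23-fold between plants of Bd3-1. The log2 sum correlated with the share of plastid counts at r = -0.35 in Bd21 drought (n = 49) and -0.34 in Bd3-1 drought (n = 58), and with library total at 0.25 and 0.01, values that share the library total as denominator and whose part in the spread was not tested.

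**Figure D3:**
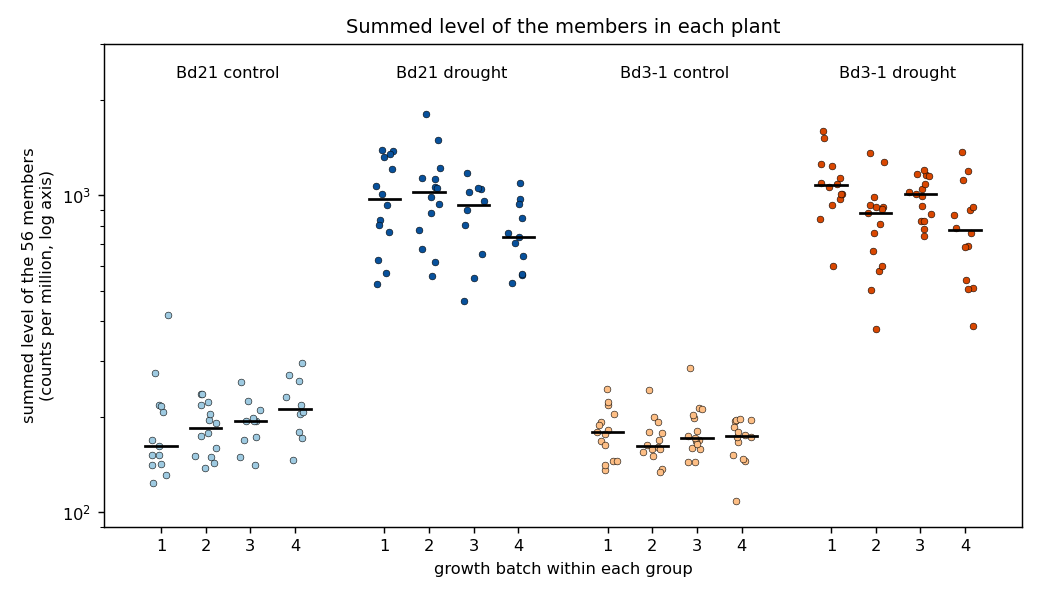
Summed level of the 56 members in each plant, in CPM on a log axis, by group and by growth batch, with a black bar at the batch median. Every droughted plant lies above every control plant of its accession, and the batch medians of droughted plants range from 739 to 1021 CPM in Bd21 and from 776 to 1075 CPM in Bd3-1.

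The rise was present in each growth batch but differed in size. All 56 members had a ratio above 1 in all 4 batches of both accessions, wherever the control mean was above 0. The same plants gave the means by which the members were chosen, so the choice favours such ratios. The counts in this paragraph were not made over other genes, and nothing is read from them about the members. A ratio of at least 3 in all 4 batches was found for 30 members in Bd21, 43 in Bd3-1 and 27 in both. The median ratio over members was lowest in batch 4 of each accession, at 3.21 in Bd21 and 4.42 in Bd3-1. The highest batch medians were 5.49 in batch 2 of Bd21 and 6.61 in batch 1 of Bd3-1. The smallest ratio of any member in any batch was 1.38, for Bradi3g45080 in Bd21.

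In droughted plants the members varied more from plant to plant than most of the 14960 genes did. The biological coefficient of variation, the spread between plants that remains after counting error is subtracted, had a median over members of 0.434 in Bd21 control and 0.443 in Bd21 drought, and of 0.379 in Bd3-1 control and 0.409 in Bd3-1 drought. Over the 14960 genes it was between 0.154 and 0.172. The median of those genes was exceeded by 54 members in Bd21 drought, by all 56 in Bd3-1 drought, by 48 in Bd21 control and by 45 in Bd3-1 control. The 14960 genes were chosen by their level under drought, so in control plants, where the members were scarce, they are not genes of a like level. In droughted plants they were not matched to the members in level or in size of response. The choice of members by their rise in these plants can favour a larger spread. Among droughted plants the highest values were 1.12 for Bradi2g11567 in Bd21 and 1.08 for Bradi3g46360 in Bd3-1. The lowest in Bd3-1 was 0.202, for Bradi3g26640. In Bd21 the lowest was 0, as for Bradi2g21240 and Bradi3g08870. A 0 is a floor, set where the counting error subtracted is at least the observed spread, and does not mean that plants were alike.

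In droughted plants the members varied together from plant to plant, more closely than in control plants. Over the 1540 pairs of members, the median Pearson's r of log2(CPM + 1) was 0.345 in Bd21 drought (n = 49) and 0.388 in Bd3-1 drought (n = 58), against 0.064 in Bd21 control (n = 48) and 0.035 in Bd3-1 control (n = 58). Over pairs of the 14960 genes it was between 0.035 and 0.059 in the 4 groups. In droughted plants 20.1% of member pairs in Bd21 and 28.1% in Bd3-1 had an r above 0.5, against 0.779% and 0.325% in control plants. The first principal component of the members held 38.1% and 42.0% of their variance in droughted plants and 13.3% and 9.48% in control plants. These values pool the plants of all 4 growth batches. Computed within each batch, the median r had an SD over batches of 0.087 in Bd21 drought and 0.11 in Bd3-1 drought. All points of these correlations share a library and its total. The members were chosen by their rise in these same droughted plants and the 14960 genes were not. The choice can thus favour a higher r among members under drought. Counting noise was larger in control plants, where the members had fewer counts. When the counts of each member in droughted plants were thinned to its control mean, a setting chosen after the data were seen, the median r under drought was 0.189 in Bd21 and 0.161 in Bd3-1. When control plants were read only through members of at least 10 CPM, it was 0.190 over 7 members in Bd21 and 0.072 over 5 in Bd3-1, and droughted plants read through their members of at least 10 CPM had 0.430 and 0.527, over 22 members each.

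**Figure D4:**
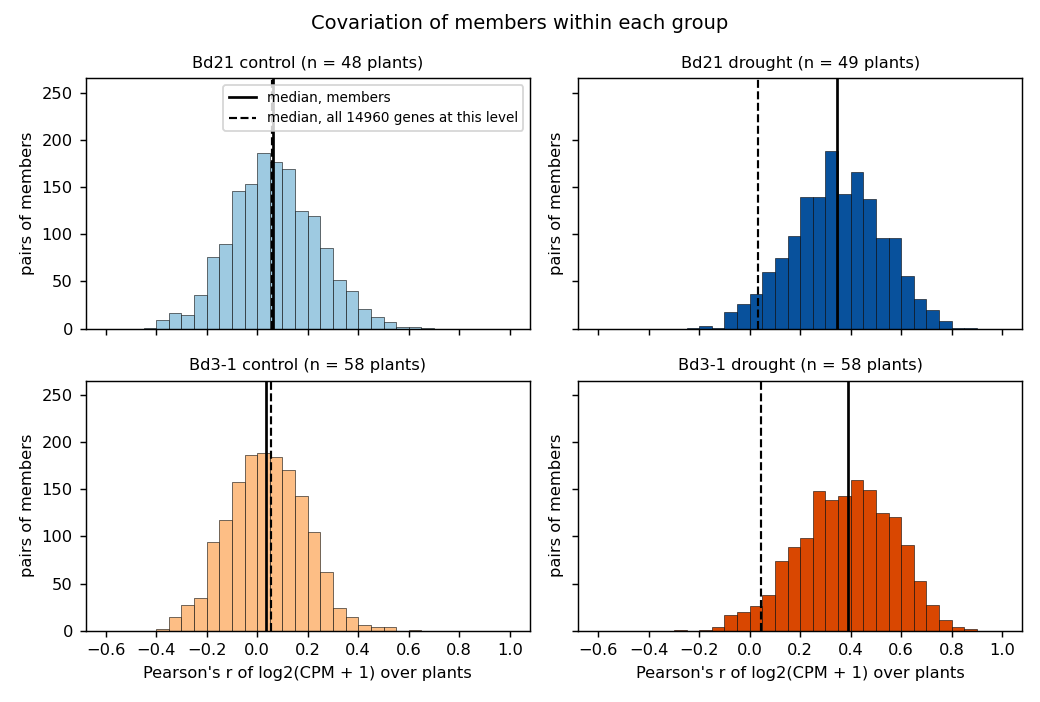
Number of member pairs (of 1540) by Pearson's r of log2(CPM + 1) over the plants of a group, for each of the 4 groups. The solid line marks the median of the members and the dashed line that of the 14960 genes chosen by their level under drought. The values are 0.064 and 0.059 in Bd21 control, 0.035 and 0.053 in Bd3-1 control, 0.345 and 0.035 in Bd21 drought, and 0.388 and 0.046 in Bd3-1 drought. In control plants the members were scarce, and the 14960 genes are not genes of a like level there. The members were chosen by their rise in the same droughted plants, and the 14960 genes were not.

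The members most typical of the set in droughted plants were Bradi4g17200, with a median r to the other members of 0.530 in Bd21 and 0.568 in Bd3-1, Bradi2g17550 (0.461 and 0.565), Bradi3g26745 (0.485 and 0.524) and the cold regulated protein Bradi2g45054 (0.445 and 0.565). The least typical were Bradi2g19710, with 0.075 and 0.163, Bradi3g26640 (0.204 and 0.172), Bradi3g26647 (0.240 and 0.161) and Bradi4g31360 (0.247 and 0.231). By the mean over both droughted groups the closest pair was Bradi1g46710 with Bradi3g46320, on different chromosomes, at 0.779 in Bd21 drought and 0.874 in Bd3-1 drought, and at 0.502 and 0.628 in control plants. Taken singly, Bd21 drought had its highest r between Bradi1g51245 and Bradi2g45054, at 0.866, and Bd3-1 drought between Bradi1g46710 and Bradi3g26745, at 0.893.

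Of the 4 pairs of neighbouring loci, 3 were close. Bradi2g17530 and Bradi2g17550 had an r of 0.723 in Bd21 drought and 0.844 in Bd3-1 drought. The cold regulated proteins Bradi2g45050 and Bradi2g45054 had 0.756 and 0.728, and Bradi3g00900 and Bradi3g00910, whose estimates are largely fractional, had 0.757 and 0.703. Bradi3g26640 and Bradi3g26647, at 0.344 and 0.326, stood no closer than the median pair of members in either accession.

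Some members belong to co-expression modules that the study built from these libraries, so that these lists are not independent evidence of covariation or direction. The list used here for modules found in droughted plants of both accessions holds 13 genes, of which 9 are members (69.2% of the list, 16.1% of the members). It does not hold every gene of those modules. The list for a module found in droughted Bd21 alone holds 48 genes, of which 8 are members (16.7% of the list, 14.3% of the members). The other 39 members are in neither list, but this does not place them outside the modules. They include the dehydrin Bradi3g43870, which the study puts in a module of droughted Bd21 that overlaps a module of droughted Bd3-1. Among the 9 the median r was 0.639 in Bd21 drought and 0.642 in Bd3-1 drought. Among the 8 it was 0.565 in Bd21 drought and 0.376 in Bd3-1 drought, and the difference was not tested. Among the 39 it was 0.301 and 0.349.

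The other genes of these lists were also mostly higher under drought, counted here without the 9 loci not described, whose ratios met the same rule. Of 32 such genes in the Bd21 list, edgeR called 25 higher and 4 lower under drought in Bd21, where 11.2% of all genes tested were called higher and 11% lower. In Bd3-1 it called 24 higher and 4 lower, where 15.8% of all genes were called higher and 14.9% lower. The 3 others of the shared list were called higher in both accessions. The study named genes of abscisic acid signalling and drought response within the module of droughted Bd21, so the list of these overlaps the Bd21 list. Of its 13 genes, 8 are among the 9 loci and none is a member. Of the other 5, 4 were called higher in each accession, and these may be among the 32 counted above. The list named for dehydrins holds 4 genes, not all of which the study describes as dehydrins. Of these, Bradi3g43870 is a member, 1 is among the 9 loci and the other 2 were called higher in both accessions.

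In watered plants members differed between the accessions in both directions, more often with Bd21 higher. The share called is given beside that of other genes. The difference between the shares was not tested, and nothing is read from it. The quasi-likelihood test of edgeR, with Benjamini-Hochberg adjustment over 26136 genes, called 25 of 56 members in control plants (44.6%). Of these, 19 were higher in Bd21 and 6 higher in Bd3-1. Among all genes tested, 33.6% were called, 17.9% higher in Bd21 and 15.7% higher in Bd3-1, and among the 14960 genes chosen by their level under drought 38.3% were. The median log2 fold change of the members, Bd21 over Bd3-1, was 0.22 in control plants, against 0.01 over all genes tested.

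The largest difference in favour of Bd21 in watered plants was that of Bradi4g42400. It had a lowest, median and highest level of 1.59, 10.1 and 23.6 CPM in Bd21 control and of 0.414, 2.27 and 4.97 CPM in Bd3-1 control, so that the groups overlapped only at their edges. The log2 fold change was 2.15 ± 0.14 (SE, edgeR adjusted p = 4.84e-31). Ranges within batches, here and below, are of the log2 ratio of mean CPM and not of the fit. For this member the range over the 4 growth batches was 1.97 to 2.48. Bradi3g44260 differed by 2.07 ± 0.31 (adjusted p = 1.21e-10), with medians of 1.91 and 0.493 CPM. Bradi1g74320 differed by 1.89 ± 0.29 (adjusted p = 4.34e-11), with no count in 33 of 58 Bd3-1 control libraries and in 4 of 48 of Bd21. The neighbours Bradi2g17530 and Bradi2g17550 were higher in Bd21 by 1.71 ± 0.21 (adjusted p = 1.14e-12) and 1.05 ± 0.17 (adjusted p = 8.81e-08). The call of Bradi2g18090, at 1.53 ± 0.67 (adjusted p = 0.000365), rests on 23 counts in Bd21 and 4 in Bd3-1 control plants, and DESeq2 did not make it (1.01, adjusted p = 0.323).

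Bd3-1 was higher in fewer members in watered plants. Bradi4g30668 had a lowest, median and highest level of 4.15, 11.2 and 39.9 CPM in Bd3-1 control and of 0, 2.41 and 6.50 CPM in Bd21 control, so that the groups overlapped at their edges. The log2 fold change was -2.07 ± 0.14 (edgeR adjusted p = 4.25e-28), and the log2 ratio of mean CPM lay between -2.33 and -1.79 within growth batches. Bradi2g21240 differed by -1.43 ± 0.21 (adjusted p = 2.5e-10), the ubiquitin ligase Bradi4g29360 by -1.13 ± 0.24 (adjusted p = 1.42e-05) and Bradi2g41530 by -0.52 ± 0.15 (adjusted p = 0.00275). Bradi1g51245 differed by -0.45 ± 0.10 (adjusted p = 5.58e-05). The dehydrin, the cold regulated proteins and the kinase did not pass the test, with values between -0.09 and 0.23 and standard errors of 0.12 to 0.51.

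Under drought the calls among members were about evenly divided between the directions. The share called was again not tested against that of other genes, and nothing is read from the difference. The test called 29 of 56 members in droughted plants (51.8%), 14 higher in Bd21 and 15 higher in Bd3-1. Among all genes tested 36.2% were called, 18.7% higher in Bd21 and 17.5% higher in Bd3-1, and among the genes at this level 42.1% were. The median log2 fold change of the members was -0.01 in droughted plants. Of the members, 19 were called in both treatments, all with the same direction in each, 6 in control plants alone, 10 in droughted plants alone and 21 in neither. Over all genes tested the shares were 24.7% in both with 1 direction, 0.149% in both with opposite directions, 8.77% in control plants alone, 11.4% in droughted plants alone and 55.1% in neither.

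Bradi4g30668 was the member with the largest accession difference in drying leaves. It had a lowest, median and highest level of 18.2, 67.7 and 126 CPM in Bd3-1 drought and of 3.91, 8.24 and 27.9 CPM in Bd21 drought. The log2 fold change was -2.87 ± 0.12 (edgeR adjusted p = 6.28e-45), and the log2 ratio of mean CPM lay between -3.16 and -2.63 within growth batches. Droughted Bd21 plants thus held less of this transcript, by their median, than watered Bd3-1 plants. Bradi2g21240 was next at -1.97 ± 0.14 (adjusted p = 1.45e-27), with medians of 2.47 CPM in Bd21 and 9.03 CPM in Bd3-1. Bradi2g41530 differed by -0.84 ± 0.14 (adjusted p = 5.38e-08), Bradi4g29360 by -0.82 ± 0.21 (adjusted p = 0.000529) and Bradi3g46320 by -0.71 ± 0.13 (adjusted p = 1.8e-06).

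In favour of Bd21 the largest differences in drying leaves were those of Bradi3g44260, at 1.65 ± 0.17 (edgeR adjusted p = 1.34e-16), and Bradi4g42400, at 1.61 ± 0.11 (adjusted p = 6.85e-26). Bradi4g42400 had a lowest, median and highest level of 22.7, 55.2 and 112 CPM in Bd21 drought and of 4.73, 18.2 and 41.6 CPM in Bd3-1 drought, with some overlap. Bradi3g00910 was 2.47-fold higher (SE of the log2 value 0.18, adjusted p = 4.24e-10), Bradi1g74320 by 1.09 ± 0.17 (adjusted p = 1.88e-08) and Bradi3g00900 by 1.06 ± 0.22 (adjusted p = 2.73e-05). Estimates of Bradi3g00900 and Bradi3g00910 are largely fractional, and whether reads were divided alike in the accessions was not tested. The dehydrin, the cold regulated proteins and the kinase again did not pass the test, with values between -0.29 and 0.05 and standard errors of 0.09 to 0.24.

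The direction held within batches for most calls. Of the 25 members called in control plants, 21 had the direction of the fit in all 4 growth batches and 22 in all 3 RNAseq plates. Of the 29 called in droughted plants, 23 and 28 did. The exceptions under drought included Bradi1g51245, whose log2 ratio of means lay between -0.56 and 0.01 over growth batches, and Bradi4g17200, where it lay between -1.48 and 0.54.

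**Figure D5:**
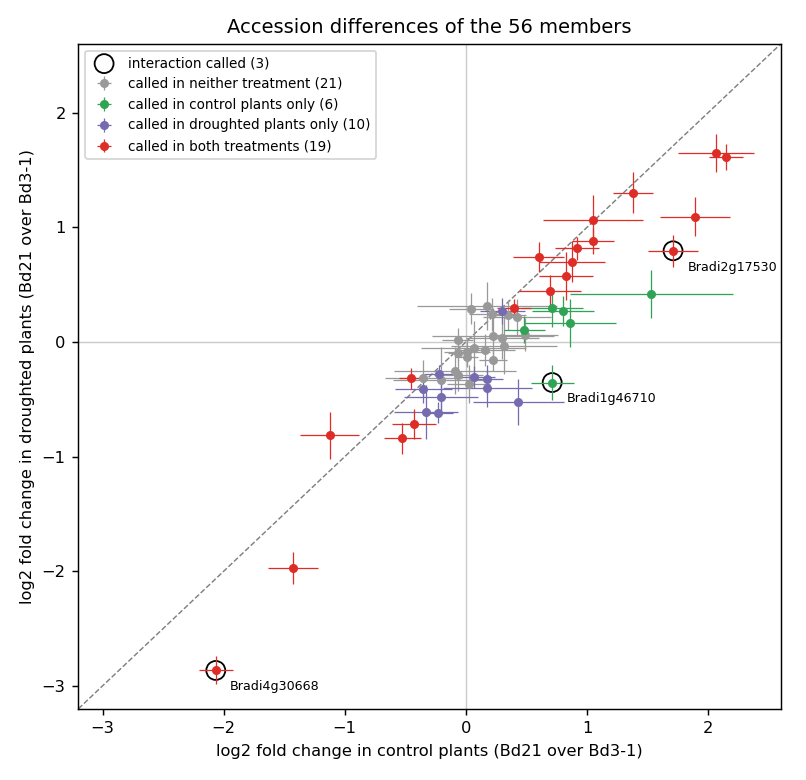
Log2 fold change between the accessions (Bd21 over Bd3-1) in control plants (x axis) and in droughted plants (y axis) for the 56 members, with bars of 1 SE and colours for the treatments in which edgeR called a difference. Points below the dashed line of equality have a larger log2 rise under drought in Bd3-1, and the 3 circled members are those called in the interaction test.

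The size of the drought response differed between the accessions in 3 members, each with the larger log2 rise in Bd3-1. The interaction is the log2 response to drought of Bd21 less that of Bd3-1. It was called at an adjusted p of at most 0.1 in 3 of 56 members, 0 with the larger rise in Bd21 and 3 with the larger rise in Bd3-1. Among all genes tested 1.78% were called, 0.589% and 1.19% in these directions, as were 2.51% of the genes at this level. DESeq2 called 4 members, all with the larger rise in Bd3-1, and 2.9% of the genes to which it gave an adjusted p. In edgeR 12 members had an unadjusted p under 0.05, as did 10.4% of all genes tested. The rule set a minimum on each accession's ratio and none on their difference, but that difference is made of the same ratios. The genes at this level were not matched to the members in size of response. The interaction was below 0 for 47 of 56 members, with a median of -0.24 against -0.01 over the genes at this level. The share below 0 among those genes was not counted, so nothing is read from the 47.

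Bradi1g46710 had the largest interaction, at -1.06 ± 0.25 (SE, edgeR adjusted p = 0.00631). Its lowest, median and highest level was 2.13, 9.82 and 52.1 CPM in Bd21 control and 4.97, 51.2 and 142 CPM in Bd21 drought. In Bd3-1 it was 1.56, 6.40 and 26.6 CPM in control plants and 11.2, 58.6 and 254 CPM in droughted plants. By their medians the order of the accessions turned with the treatment. Bd21 was higher in control plants (0.71 ± 0.18, adjusted p = 0.000508), and the difference in droughted plants did not pass the test (-0.35 ± 0.15, adjusted p = 0.0603). The ratio of means was 4.44 in Bd21 and 9.32 in Bd3-1, and by mean CPM the interaction lay between -1.86 and -0.46 within growth batches.

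Bradi2g17530 had an interaction of -0.91 ± 0.27 (edgeR adjusted p = 0.0455), with ratios of 5.17 in Bd21 and 9.81 in Bd3-1. By mean CPM the interaction lay between -1.38 and -0.66 within growth batches. Bradi2g17530 was higher in Bd21 in each treatment, by 1.71 in control and by 0.80 ± 0.14 in droughted plants (edgeR adjusted p = 7.27e-07). Its neighbour Bradi2g17550 did not pass the test, at -0.16 ± 0.21 (adjusted p = 0.871). Bradi4g30668 had an interaction of -0.80 ± 0.20 (edgeR adjusted p = 0.0195), with ratios of 3.32 and 5.68. By mean CPM this interaction lay between -0.87 and -0.57 within growth batches. In this member the accession with the higher level in watered leaves also had the larger rise, whereas in Bradi2g17530 the accession with the lower level did. The annotated members did not pass the interaction test, with values from -0.39 ± 0.15 for the kinase Bradi4g30380 (adjusted p = 0.25) to 0.26 ± 0.36 for the ligase Bradi4g29360 (adjusted p = 0.87).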

How the data were processed

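Leaf RNA of 214 plants was sequenced by 3′ digital gene expression, which reads 1 tag close to the end of a transcript, so that counts do not grow with gene length. Per the submitters' processing notes and the study's methods, the authors trimmed reads with Trimmomatic 0.39 and cutadapt 2.10, aligned them with Bowtie2 2.4.0 to the primary transcripts and plastid genome of Bd21, and estimated counts with RSEM 1.3.3, which divides reads that match several transcripts. The deposited table holds expected counts, not normalized, of which 86.3% of those above 0 are whole numbers. All 214 columns matched a label, and 0 rows named no gene.

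Expected counts were rounded and tested with edgeR 4.0.16 in R 4.3.3 (quasi-likelihood F-test, TMM factors, trended dispersion) over genes detected (count above 0) in more than 10 of 213 libraries. Fold changes of genes with few counts are shrunk slightly by the prior count of edgeR, and standard errors came from the information matrix of the fit. Genotype was tested within each treatment at an adjusted p of 0.05 and the interaction over all 213 libraries at 0.1. Only the genotype test in control plants was tried on simulated counts, with the same dispersion for every gene. Changes were placed only in genes above a floor of mean count, so scarce members are not covered. The tests in droughted plants and of the interaction were not simulated. DESeq2 1.42.0 was an alternative. Growth batch and RNAseq plate came from the sample table of the study. Intervals cover counting error only.

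The members and lists were chosen with earlier results of these data known. Single members are described if the study annotates them, if they are among the 8 with the largest ratio or the 8 with the highest droughted level, the 5 with the largest called accession difference in each direction of a test, the 4 most or least correlated with the others, the 3 on either side of the threshold, or neighbours (locus numbers no more than 30 apart). Bradi2g11567, Bradi2g22410 and Bradi3g46360, and the gene pairs with the highest r, were chosen after their values were seen. Locus names matched 0 of the 31335 entries of the RefSeq gene table, so promoter motifs and plastid marker genes were not analysed here.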

Additional observations from a re-analysis of the deposited data

Results flagged for a closer look

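The drought response differed between the accessions, by the interaction test of edgeR, in Bradi1g46710 (log2 difference, Bd21 minus Bd3-1, of -1.06), Bradi2g17530 (-0.91) and Bradi4g30668 (-0.80). The direction of each was the same in all 4 growth batches and in all 3 RNAseq plates.

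Bd3-1 drought replicate 59, which was left out of the values reported, had 54 of 56 members above the median of Bd3-1 control plants and a summed level of 871 CPM, within the range of the droughted plants of both accessions (465 to 1809 CPM in Bd21, 379 to 1600 CPM in Bd3-1) and above the highest control plant of either.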

How the results depend on the processing

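Beside the 9 loci not described, the rule returned between 51 and 57 genes under the 6 other settings of library size, group summary, depth and library choice, of which between 47 and 56 were members. The smallest overlap was with group medians in place of means (47 of 56 genes). The count of members called between the accessions in control plants fell from 25 to 8 with the filterByExpr filter of edgeR, under which 14 of 56 members were tested. Under the other alternatives it lay between 23 and 26, that in droughted plants between 23 and 29, and that of the interaction between 3 and 4. No named member changed direction with a call. Among named members in control plants, Bradi3g46320 lost its call without the deepest library, a Bd21 control plant (-0.38, adjusted p = 0.0821), and with no filter, the plate as a term or the block (adjusted p from 0.0503 to 0.0673). Bradi2g18090 lost it in DESeq2, and Bradi3g00900 and Bradi3g12570 under the block (adjusted p = 0.0893 and 0.11), under which Bradi4g18820 gained one (0.014). In droughted plants Bradi3g26647 lost its call with replicate 59, no filter, growth batch as a term or the block (adjusted p from 0.0506 to 0.155), and Bradi1g46710 gained one with growth batch as a term (0.0427).

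The median r among members with at least 10 CPM in a group was 0.190 in Bd21 control, 0.430 in Bd21 drought, 0.072 in Bd3-1 control and 0.527 in Bd3-1 drought, and with counts thinned to the control mean, a setting chosen after the data were seen, it was 0.189 in Bd21 drought and 0.161 in Bd3-1 drought.

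Replicate numbers were shared between groups but did not pair the plants: deviations of same-numbered plants correlated above 0.1 in 7 of 48 pairs between the accessions in control and 6 of 49 in drought, and between treatments in 13 of 48 in Bd21 and 15 of 58 in Bd3-1. With the replicate block, its trended dispersion taken from the fit without the block, 23 members were called in control plants, 27 in droughted plants and 3 in the interaction.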

Other observations

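By chromosome, 10 of the 56 members lie on chromosome 1 (17.9%, against 30.6% of the 14960 genes at this level), 16 on chromosome 2 (28.6% against 22.9%), 19 on chromosome 3 (33.9% against 22.8%), 9 on chromosome 4 (16.1% against 14.5%) and 2 on chromosome 5 (3.57% against 9.19%). Members from neighbouring loci are counted singly here, and the 9 loci not described are not included.

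In droughted plants the members also moved against the 84 genes whose mean fell to at most 0.5 times the control mean in both accessions. The median r between a member and such a gene was -0.18 in Bd21 drought (n = 49) and -0.19 in Bd3-1 drought (n = 58), against -0.04 and -0.01 in control plants. The points share a library and its total. Both sets were chosen by their drought ratios.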
